A study of Mus musculus with 24 samples.

Results

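The genes described here encode the enzymes that make and remove reactive oxygen species in the vessel wall. The 10 genes were listed by symbol and found by their Ensembl identifier: the NADPH oxidase genes Nox1, Nox4, Cybb, Cyba and Ncf1, the superoxide dismutase genes Sod1, Sod2 and Sod3, the catalase gene Cat and the glutathione peroxidase gene Gpx3. They are 10 of the 55421 genes in the tables, and all 10 passed the filter on low counts. They were measured by mRNA sequencing of uninjured carotid arteries from C57BL/6 mice, in 24 libraries of 6 mice per group. By the labels, all animals were 9 weeks old. The OVX group was ovariectomized and given placebo, the E2 group estradiol, the E4 group estetrol, a natural estrogen with more hydroxyl groups than estradiol, and the TAM group tamoxifen, a selective estrogen receptor modulator. The labels give 3 weeks of treatment for estradiol and tamoxifen, whereas the paper states a shorter treatment and, from the age at pellet implantation, a somewhat younger age. According to the methods, the OVX, E2 and E4 mice were all ovariectomized and carried pellets made with cholesterol, so that OVX is the vehicle arm. Ovariectomy of the TAM mice was not stated in the sources used here. Titles put 6 libraries in the E4 group although their treatment label reads placebo, and the titles were followed. The pellets of E2 and E4 differed in dose, which the study chose so that both would give a comparable estrogenic effect, allowing for their different receptor affinity. The dose of tamoxifen was not given in the sources used here.

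NADPH oxidases move electrons from NADPH to oxygen and form superoxide or hydrogen peroxide. The phagocyte enzyme consists of the catalytic subunit NOX2, encoded by Cybb, its membrane partner encoded by Cyba, and cytosolic organizer and activator proteins such as the one encoded by Ncf1, and it is best known from neutrophils and macrophages. Nox1 and Nox4 encode catalytic subunits of other oxidases that are well described in vascular smooth muscle. Superoxide dismutases convert superoxide to hydrogen peroxide in the cytosol (Sod1), the mitochondria (Sod2) and the extracellular matrix (Sod3), and catalase and glutathione peroxidases then break down hydrogen peroxide. Gpx3 encodes the secreted glutathione peroxidase found in plasma.

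Expression is given as CPM, the count of a gene scaled to a common library size with TMM factors. Total counts ranged from 24649523 to 64223858 (median 45158433.5). The arteries carried RNA of smooth muscle (summed CPM of 7 markers between 2351 and 8375), of endothelium (8 markers, 534 to 1185) and of fibroblasts (7 markers, 3040 to 7425), and also of sympathetic ganglion, fat and blood cells. None of the 98 markers searched was at 0 in every library. A pair of libraries stood apart: OVX C5 and TAM C35 had a mean of 0.98 and 3.605 log2 CPM over 9 sympathetic ganglion markers, against 6.74 to 7.74 and 7.71 to 8.22 in the others of their groups. TAM C35 also had the highest sums of smooth muscle (8375 CPM, against 3003 to 4286 in the other TAM mice), endothelial (1185), fibroblast (7425) and skeletal muscle (246) markers of all 24 libraries. OVX C5 was the highest of its group for 7 of the 10 genes and the lowest for Nox1, and TAM C35 was the highest for 5 and the lowest for Nox1. E4 C38 stood apart by thyroid and parathyroid markers, whose 6 genes summed to 2989 CPM (Pth alone, the parathyroid hormone gene, reached 2912), against 28.3 to 132 in the other E4 mice and 4.71 to 39.6 in the other groups. No call of the 10 genes changed without E4 C38. Results that changed without OVX C5 and TAM C35 are given beside the main values. Animal numbers fell in 2 runs within every group, here called number series (up to C20 and from C24), and the sources used here do not say whether these are batches. In whole tissue, fewer cells of a type and less RNA per cell cannot be told apart.

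In E2-treated mice, 3 of the 10 genes had higher expression than in OVX mice at an adjusted p-value under 0.05 (quasi-likelihood F-test of edgeR, Benjamini-Hochberg adjusted over 25056 genes), namely Cybb, Ncf1 and Gpx3. Of all genes tested, 2.87% were higher and 1.27% were lower in that comparison. In E4-treated mice Gpx3 alone passed the test against OVX, with higher expression, where 9.5% of all genes were higher and 12.5% lower. Gpx3 was also the only one of the 10 to pass in TAM-treated mice against OVX, again higher, where 1.3% of all genes were higher and 0.93% lower. None of the 10 passed with lower expression than in OVX in any treated group. The stricter threshold of the paper also asks for a minimum fold change. With a log2 fold change beyond 1 in either direction required as well, 1 gene remained for E2 and 1 for E4, in both cases Gpx3, and 0 for TAM, against 1.27%, 2.51% and 0.315% of all genes. These 3 comparisons share the 6 OVX libraries.

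The treated groups were also compared with each other. Cybb, Cyba and Ncf1 were lower in E4-treated than in E2-treated mice, in a comparison where 9.05% of all genes were lower and 3.55% higher. Cybb, Ncf1 and Gpx3 were lower in TAM-treated than in E2-treated mice, where 4.48% of all genes were lower and 1.92% higher. Between TAM and E4, 0 of the 10 genes passed the edgeR test, where 0.172% of all genes were higher and 0.172% lower. In that edgeR test Gpx3 was the 1 gene of the 10 with an unadjusted p-value under 0.05, and DESeq2 also called 0. With the fold-change threshold added, 0 of the 10 passed in these 3 comparisons, against 2.49%, 1.65% and 0.2% of all genes. The median log2 fold change of the 10 genes was 0.19 for E2, -0.06 for E4 and -0.07 for TAM against OVX, where the medians of all tested genes were 0.0060, -0.0137 and -0.0031. Nox1, Nox4, Sod1, Sod2, Sod3 and Cat passed in none of the 6 comparisons, apart from the alternatives named with each gene. The shares over all genes depended on single libraries. For TAM against OVX (325 genes higher and 233 lower) the 2 directions together came to between 76 genes without OVX C3 and 876 without TAM C35, with moves beyond 1.5-fold also without OVX C5 or TAM C11, C12, C13 or C33. For E4 against OVX (2381 and 3130) they came to 3280 to 6389, with such moves without OVX C3 or E4 C20. For E4 against E2 (889 and 2268) they came to 1440 to 4315, with such moves without E2 C6, C8 or C9 or E4 C19 or C20, and for TAM against E2 (482 and 1122) to 1008 to 2046, with such moves without E2 C8 or C9.

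**Figure D1:**
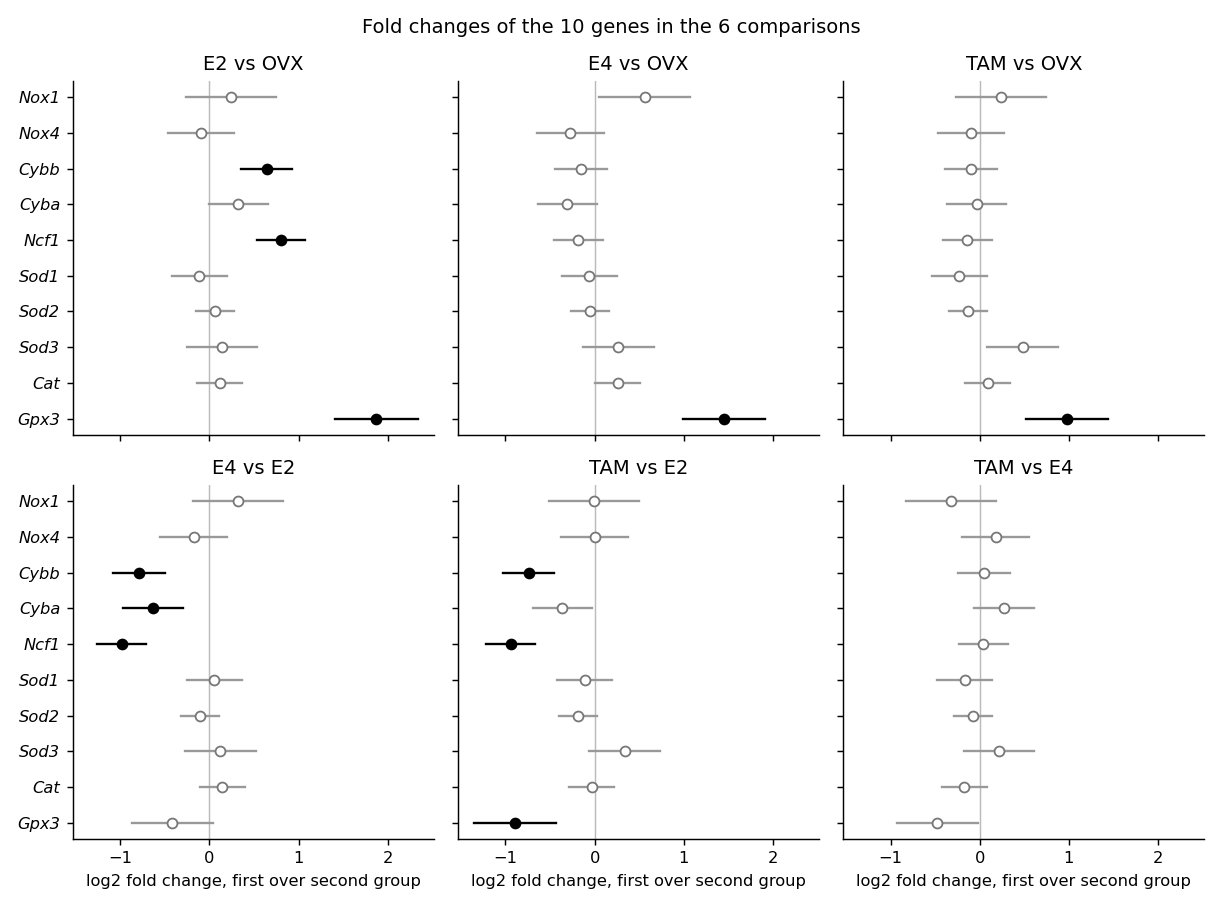
Log2 fold changes of the 10 genes (x axis, first over second group) in the 6 comparisons, with 6 libraries per group; lines are 95% confidence intervals and filled black points have an adjusted p under 0.05. Gpx3 lies farthest to the right in the 3 comparisons with OVX (1.87, 1.46 and 0.98), and Cybb and Ncf1 lie to the right for E2 against OVX and to the left for E4 and TAM against E2.

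Ncf1, on chromosome 5, encodes the organizer protein that brings the cytosolic subunits of the phagocyte oxidase to the membrane. Its level ranged from 7.49 to 12.9 CPM in OVX mice (median 9.51) and from 14.1 to 20.01 in E2-treated mice (median 17.1). It ranged from 7.13 to 10.7 in E4-treated mice (median 8.06) and from 7.87 to 10.4 in TAM-treated mice (median 8.83). All 6 E2 libraries thus lay above all 18 others, while OVX, E4 and TAM overlapped. The log2 fold change of Ncf1 was 0.80 ± 0.13 (SE) for E2 against OVX (adjusted p = 0.000392). It was -0.98 ± 0.13 for E4 against E2 (adjusted p = 8.3e-05) and -0.94 ± 0.13 for TAM against E2 (adjusted p = 7.07e-05). Against OVX, it was -0.18 for E4 (95% confidence interval -0.45 to 0.09) and -0.14 for TAM (-0.41 to 0.13), neither of which passed.

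Cybb, on chromosome X, encodes the catalytic subunit NOX2. Its level ranged from 19.5 to 26.7 CPM in OVX mice (median 21.6) and from 25.5 to 42.3 in E2-treated mice (median 35.2). It ranged from 14.4 to 25.1 in E4-treated mice (median 20.98) and from 17.7 to 23.5 in TAM-treated mice (median 20.5). For Cybb, 5 of the 6 E2 libraries were above every OVX library, the exception being E2 C27 below OVX C5, and all 6 were above every E4 and TAM library. The log2 fold change of Cybb was 0.64 ± 0.14 for E2 against OVX (adjusted p = 0.00705), -0.79 ± 0.14 for E4 against E2 (adjusted p = 0.000973) and -0.74 ± 0.14 for TAM against E2 (adjusted p = 0.0017). The order of the group means was E2, OVX, TAM and E4, and below E2 no neighbours differed beyond their spread.

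Cyba, on chromosome 8, encodes the small membrane subunit that NOX2 shares with NOX1 and NOX4. Its level ranged from 12.04 to 23.3 CPM in OVX mice, from 15.9 to 25.6 in E2-treated, from 11.1 to 16.9 in E4-treated and from 13.03 to 24.5 in TAM-treated mice. The medians were 14.9, 19.97, 12.8 and 14.2 CPM, so that E2 was again the highest, but each range overlapped every other. Every E2 library was above 5 of the 6 E4 libraries, and the log2 fold change of Cyba for E4 against E2 was -0.63 ± 0.16 (adjusted p = 0.0155). It did not pass for E2 against OVX (0.33 ± 0.16, adjusted p = 0.328) or TAM against E2 (-0.36 ± 0.16, adjusted p = 0.195). OVX C5 and TAM C35 gave the highest Cyba values of their groups. Without both of them Cyba passed in both comparisons, with log2 fold changes of 0.45 (adjusted p = 0.0166) and -0.52 (adjusted p = 0.00511). Without TAM C35 alone it passed for TAM against E2 (-0.52, adjusted p = 0.0235). With the ganglion markers as a covariate it passed for E2 against OVX (0.47, adjusted p = 0.00249) and TAM against E2 (-0.39, adjusted p = 0.00869). Without E2 C8 the value for E4 against E2 was -0.55 and no longer passed (adjusted p = 0.0508).

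**Figure D2:**
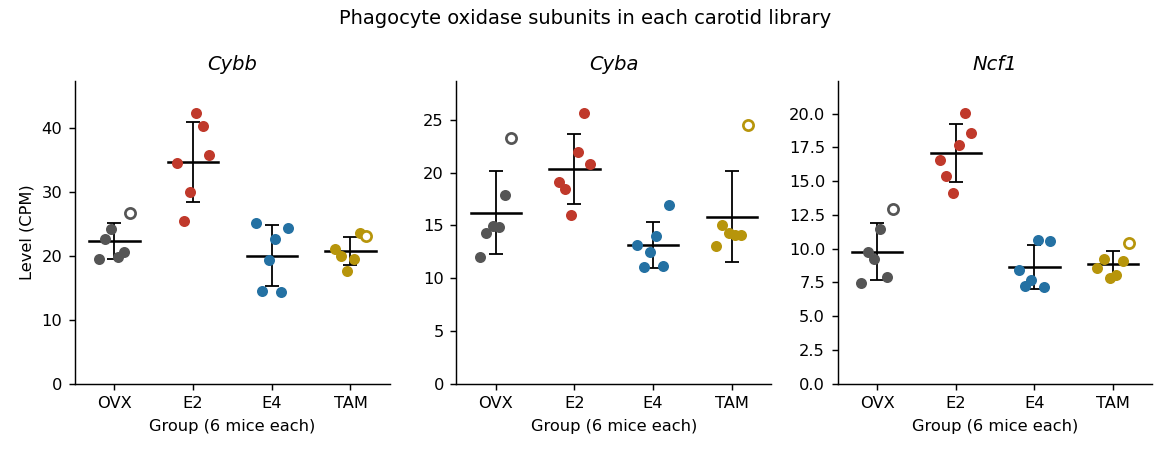
Level of Cybb, Cyba and Ncf1 in CPM (y axis) in each of the 24 libraries by group; points are mice, bars are the mean ± SD of 6 and open circles are OVX C5 and TAM C35. For Ncf1 the 6 E2 mice (14.1 to 20.01) sit above all others (7.13 to 12.9), for Cybb 1 E2 mouse overlaps OVX, and for Cyba the groups overlap.

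The E2 differences of these subunits were larger in the first number series than in the second. For E2 against OVX the log2 fold change of Cybb was 0.86 in the first series (adjusted p = 0.0268) and 0.35 in the second, where it did not pass (adjusted p = 0.68). That of Ncf1 was 0.92 (adjusted p = 0.0214) and 0.68 (adjusted p = 0.242). For E4 against E2 the values were -1.01 and -0.53 for Cybb, -1.27 and -0.68 for Ncf1 and -0.899 and -0.33 for Cyba, and for TAM against E2 they were -1.02 and -0.43 for Cybb and -1.14 and -0.72 for Ncf1. All of these passed in the first series and none in the second, which has 2 OVX and 3 mice of each other group. Calls over all genes varied between the alternatives too, so these losses are not read as a result about the subunits. Fits without 1 library aside, the alternatives called 92 to 2204 of all genes for E2 against OVX. They called 0 to 6465 for E4 against E2 and 115 to 3332 for TAM against E2. In the edgeR test of the difference between the series, the change in Cybb for E2 against OVX was -0.50 (second minus first, unadjusted p = 0.0836, adjusted p = 1.0). The smallest unadjusted p-values among these 3 genes were those of Ncf1 for E4 against E2 (0.58, unadjusted p = 0.0356, adjusted p = 0.466) and Cyba for TAM against E2 (0.67, unadjusted p = 0.0425, adjusted p = 0.224). That test called 0 of all genes in each of the 6 comparisons, with between 725 and 5359 at an unadjusted p-value under 0.05.

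The RNA of macrophages moved in the same comparisons as these subunits. All 10 of 10 macrophage markers were higher in E2-treated than in OVX mice (median log2 fold change 0.85), and all 10 were lower in E4-treated and in TAM-treated than in E2-treated mice (medians -1.08 and -0.98). Their summed level ranged from 992 to 1501 CPM with E2, against 582 to 1057 in OVX, 423 to 790 in E4 and 548 to 758 in TAM mice. The E2 sum differed from that of OVX (exact two-sided permutation test, p = 0.00433) and from those of E4 and TAM (p = 0.00216 each, the smallest that 6 against 6 allows). The marker list was chosen with earlier results of these data known, so these p-values are descriptive. Across the 24 libraries, which share the groups, the Pearson r with the mean of the macrophage markers was 0.95 for Cybb, 0.94 for Ncf1 and 0.83 for Cyba, and on deviations from the group means it was 0.86, 0.74 and 0.81. Such values were not particular to macrophages. Within groups Cyba had an r of 0.91 with fibroblast and 0.80 with smooth muscle markers. Ncf1 had 0.75 with white adipocyte markers, and Cybb had 0.72 with fibroblast markers. Neutrophil markers, the other classical source of this oxidase, summed to between 1.33 and 63.7 CPM over the 24 libraries, while Ly6g and Mpo stayed below the filter. For E2 against OVX 0 of the 6 tested neutrophil markers passed in edgeR (median log2 fold change 1.24), and for TAM against E2 also 0 (median -1.47). The exact two-sided permutation test of their sums gave p = 0.212 for E2 against OVX and p = 0.117 for TAM against E2. For E4 against E2, where the 3 subunits were lower, 3 of the 6 were lower (median -1.91), and their sum ranged from 5.27 to 63.7 CPM with E2 and from 2.79 to 9.21 with E4 (exact two-sided permutation test, p = 0.0281). The r of the neutrophil marker mean with Cybb, Cyba and Ncf1 was 0.64, 0.54 and 0.68, and its part in the results was not tested.

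With the macrophage marker mean as a covariate, none of the 3 subunits passed in any of these comparisons. That mean ranged from 5.79 to 6.27 log2 CPM with E2 and from 4.56 to 5.69 in the other groups, without overlap. This fit therefore cannot separate E2 treatment from the macrophage markers. For E2 against OVX the log2 fold change of Ncf1 was then 0.20 (adjusted p = 0.40) and that of Cybb was -0.15 (adjusted p = 0.474). As a share of the summed macrophage markers, Ncf1 amounted to 1.14% to 1.68% in OVX and 1.187% to 1.499% in E2-treated mice, with means of 1.39% ± 0.20 and 1.36% ± 0.11 (SD, n = 6). In E4-treated and TAM-treated mice the share of Ncf1 was 1.51% ± 0.15 and 1.45% ± 0.06. Cybb amounted to 3.19% ± 0.47 in OVX, 2.75% ± 0.22 in E2-treated, 3.46% ± 0.33 in E4-treated and 3.40% ± 0.29 in TAM-treated mice. Cyba amounted to 2.27% ± 0.19, 1.61% ± 0.11, 2.30% ± 0.24 and 2.55% ± 0.37 in the same order. The mean share was thus lowest with E2 for all 3 genes, by least for Ncf1. The ranges of Cyba (1.47% to 1.72% with E2, at least 2.06% elsewhere) did not overlap, and for Cybb those of E2 and OVX did. T cell markers (7 of 7) and fibroblast markers (4 of 7) were also lower in E4-treated than in E2-treated mice. The T cell markers summed to 6.85 to 147 CPM with E2 and 3.61 to 6.82 with E4, and their part in the result was not tested. The fibroblast markers summed to 4590 to 6852 and 3040 to 4991 CPM. Cyba correlated with the fibroblast markers too (r = 0.84), and with those as a covariate its log2 fold change for E4 against E2 was -0.09 (adjusted p = 0.615). With the same covariate Cybb lost its call in that comparison (-0.44, adjusted p = 0.0652), Ncf1 kept it (-0.67, adjusted p = 0.00853), and Cyba passed for E2 against OVX (0.33, adjusted p = 0.00505) and TAM against E2 (-0.37, adjusted p = 0.00146). Cyba for E4 against E2 also lost its call with the B cell (-0.48, adjusted p = 0.139) or white adipocyte (-0.45, adjusted p = 0.0818) markers as a covariate.

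**Figure D3:**
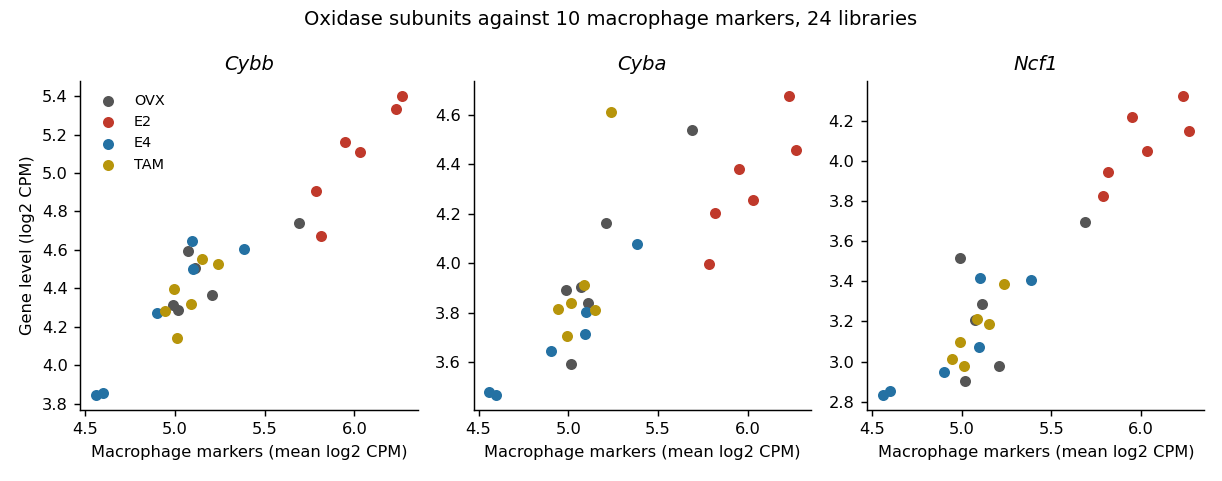
Level of Cybb, Cyba and Ncf1 (y axis, log2 CPM) against the mean of 10 macrophage markers (x axis, log2 CPM) in the 24 libraries, 1 point per mouse, coloured by group. The 6 E2 mice lie at 5.79 to 6.27 on the x axis and the other 18 at 4.56 to 5.69, and all 3 genes rise along it (r = 0.95, 0.83 and 0.94).

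Other genes of the phagocyte oxidase were read from a wider list of 69 oxidant and antioxidant genes, of which 64 passed the filter. Ncf4, which encodes another cytosolic subunit, had means of 2.81 CPM in OVX, 5.36 in E2, 1.98 in E4 and 2.52 in TAM mice, and the E2 range (4.44 to 6.66) overlapped none of the others. Its log2 fold change was 0.93 ± 0.15 for E2 against OVX (adjusted p = 0.000311), -1.43 ± 0.15 for E4 against E2 (adjusted p = 1.77e-05) and -1.09 ± 0.15 for TAM against E2 (adjusted p = 5.59e-05). Ncf4 was also lower in E4-treated than in OVX mice (-0.49 ± 0.15, adjusted p = 0.025), with overlapping ranges. Rac2, the hematopoietic small GTPase of the complex, was lower in E4-treated (-1.35 ± 0.23, adjusted p = 0.000685) and TAM-treated (-0.95 ± 0.23, adjusted p = 0.0119) than in E2-treated mice. For E2 against OVX its value was 0.64 ± 0.22, which did not pass (adjusted p = 0.119).

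The sequences of the Cybb and Ncf1 promoters are shown because both genes passed in the same comparisons. They run from 250 bases before to 50 bases after the RefSeq start of each gene (GRCm38.p6), 5′ to 3′ on the strand of the gene. Both lie on the minus strand, Cybb at chrX:9469275-9469574 and Ncf1 at chr5:134229576-134229875. Letters of a motif searched would stand in capitals, and neither holds one.
Cybb: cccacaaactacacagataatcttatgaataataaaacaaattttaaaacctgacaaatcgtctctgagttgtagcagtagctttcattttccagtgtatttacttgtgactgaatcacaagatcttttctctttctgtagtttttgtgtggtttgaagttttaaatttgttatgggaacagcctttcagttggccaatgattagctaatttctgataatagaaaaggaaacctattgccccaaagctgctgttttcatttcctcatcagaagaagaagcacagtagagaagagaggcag
Ncf1: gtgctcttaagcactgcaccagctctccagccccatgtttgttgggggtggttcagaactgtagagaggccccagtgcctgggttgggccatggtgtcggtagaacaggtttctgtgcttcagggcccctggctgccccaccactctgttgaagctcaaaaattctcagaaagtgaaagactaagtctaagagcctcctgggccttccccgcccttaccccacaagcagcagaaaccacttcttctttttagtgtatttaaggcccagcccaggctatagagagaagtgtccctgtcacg
The motifs were the palindromic estrogen response element, its half-site GGTCA, the antioxidant response element core TGACNNNGC, the PU.1 core GAGGAAGT and the TATA box TATAAA, each on both strands. Of 32851 promoters in the table, 0.0700% held the palindrome, 40.5% the half-site, 12.4% the antioxidant core, 3.20% the PU.1 core and 13.6% the TATA box. The absence of a match says only that these letters are not in the 300 bases shown.

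Nox1, on chromosome X, had the lowest level per kb of the 10 genes. Its level ranged from 1.23 to 4.05 CPM in OVX (median 2.36), 1.96 to 4.01 in E2-treated, 3.49 to 4.34 in E4-treated and 1.39 to 3.64 in TAM-treated mice. The E4 libraries were the most alike (SD 0.33 CPM, against 1.13 in OVX), and all groups overlapped. The log2 fold change of Nox1 for E4 against OVX was 0.56 ± 0.25 and did not pass (adjusted p = 0.1). Without OVX C2, the highest OVX library, it was 0.75 and passed (adjusted p = 0.0295). The sympathetic ganglion markers moved with this gene (r = 0.82 over 24 libraries, 0.78 within groups). OVX C5 and TAM C35, the libraries low in those markers, also had the lowest Nox1 values (1.23 and 1.39 CPM). The r was not computed without them. The summed level of the ganglion markers ranged from 4434 to 7652 CPM in E4 and from 30.9 to 5480 in OVX mice. With their mean as a covariate the log2 fold change of Nox1 for E4 against OVX was 0.22 (adjusted p = 0.391). The exons of Nox1 overlap those of Cstf2 on the opposite strand over 399 bases and those of Ncf1 overlap Gtf2ird2 over 408 bases, and these 2 were the only ones of the 10 genes whose counts carried decimals.

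Nox4, on chromosome 7, encodes the oxidase that mainly releases hydrogen peroxide. Its mean was 106 ± 17.9 CPM (SD, n = 6) in OVX, 99.4 ± 22.2 in E2-treated, 87.9 ± 11.3 in E4-treated and 99.4 ± 34.6 in TAM-treated mice. The order was OVX, TAM, E2 and E4, and no neighbours in that order differed beyond their spread. The largest difference from OVX was -0.27 for E4, with a 95% confidence interval of -0.65 to 0.10 on the log2 scale. TAM C35 reached 166 CPM, above the 62.6 to 95.9 of the other TAM mice. Nox4 correlated with the smooth muscle markers (r = 0.70 over 24 libraries, 0.80 within groups).

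Sod1, the cytosolic copper and zinc enzyme on chromosome 16, had means of 60.2 ± 11.8 CPM in OVX, 55.5 ± 3.16 in E2-treated, 57.7 ± 20.2 in E4-treated and 51.3 ± 4.13 in TAM-treated mice. The spread in E4 came from E4 C16 at 98.8 CPM, where the other E4 mice lay between 47.4 and 51.5. Without E4 C16 the log2 fold change of Sod1 for E4 against OVX moved from -0.06 to -0.28 and passed (adjusted p = 0.0457). Sod2, the mitochondrial manganese enzyme on chromosome 17, had the smallest standard errors of the 10 genes (0.10 on the log2 scale), with means of 208 ± 37.7, 217 ± 28.6, 201 ± 10.8 and 190 ± 11.8 CPM in OVX, E2, E4 and TAM mice. Its log2 fold changes against OVX were 0.06 for E2, -0.05 for E4 and -0.13 for TAM, and the outermost bounds of the 3 confidence intervals were -0.35 and 0.27.

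Sod3, the extracellular enzyme on chromosome 5, had means of 176 ± 49.1 CPM in OVX, 195 ± 13.2 in E2-treated, 212 ± 53.0 in E4-treated and 246 ± 77.8 in TAM-treated mice. The highest OVX value was that of OVX C5 (250.6) and the highest TAM value that of TAM C35 (394), and the groups overlapped. The log2 fold change of Sod3 for TAM against OVX was 0.48 ± 0.19 (95% confidence interval 0.08 to 0.88) and did not pass (adjusted p = 0.155). It passed with the ganglion markers (0.57, adjusted p = 0.0284), the macrophage markers (0.59, adjusted p = 0.0444) or the fibroblast markers (0.47, adjusted p = 0.0393) as a covariate. Sod3 also passed for E4 against OVX with the ganglion (0.51, adjusted p = 0.0284) or fibroblast (0.80, adjusted p = 0.00721) covariate, for E4 against E2 with the fibroblast covariate (0.61, adjusted p = 0.0482) and for TAM against E2 with the macrophage covariate (1.16, adjusted p = 0.026). Without a covariate the value for TAM against E2 was 0.34 ± 0.19 (adjusted p = 0.325). The macrophage marker mean did not overlap between TAM and E2, so that fit cannot separate it from treatment. Sod3 correlated with the endothelial (r = 0.80) and smooth muscle (r = 0.79) markers across the 24 libraries.

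Cat, the peroxisomal catalase gene on chromosome 2, had means of 231 ± 48.9 CPM in OVX, 251 ± 31.9 in E2-treated, 277 ± 37.8 in E4-treated and 245 ± 26.6 in TAM-treated mice. The order was E4, E2, TAM and OVX, with overlap throughout. For E4 against OVX its log2 fold change was 0.26 ± 0.12, which did not pass (adjusted p = 0.124). OVX C5, at 323 CPM, was above every other OVX library (183 to 241), and without OVX C5 and TAM C35 the log2 fold change of Cat was 0.39 and passed (adjusted p = 0.0114). Cat followed the white adipocyte markers (r = 0.56, and 0.86 within groups). With those markers as a covariate Cat passed for E4 against OVX (0.39, adjusted p = 0.00122), TAM against OVX (0.295, adjusted p = 0.0442) and E4 against E2 (0.37, adjusted p = 0.00642). Cat also passed for E4 against OVX with the ganglion (0.42, adjusted p = 0.00786), macrophage (0.38, adjusted p = 0.0309) or fibroblast (0.46, adjusted p = 0.0439) covariate.

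**Figure D4:**
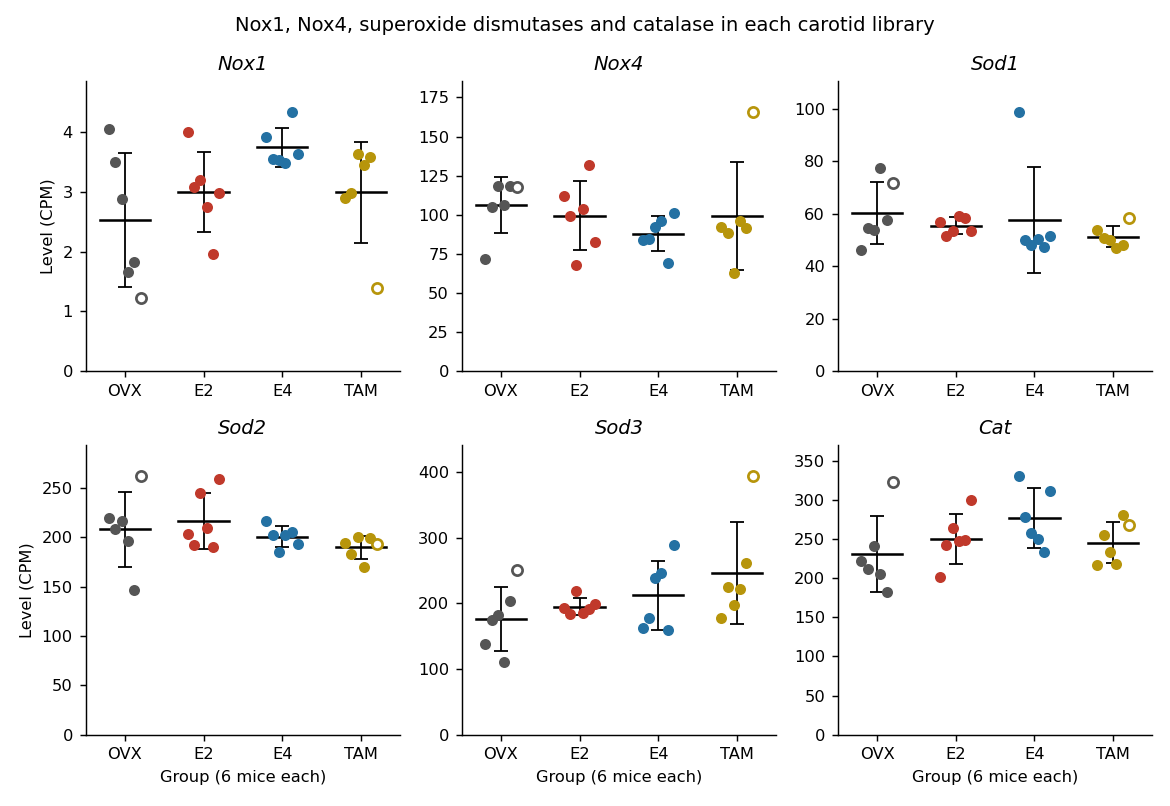
Level in CPM (y axis) of Nox1, Nox4, Sod1, Sod2, Sod3 and Cat in each of the 24 libraries by group; points are mice, bars are the mean ± SD of 6 and open circles are OVX C5 and TAM C35. The 4 groups overlap for all 6 genes, and single mice lie apart for Nox4 (TAM C35, 166), Sod1 (E4 C16, 98.8) and Sod3 (TAM C35, 394).

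Gpx3, on chromosome 11, had the highest level per kb of the 10 genes and was the only one to pass in all 3 treated groups against OVX. The OVX libraries had 395, 412, 316, 901, 378 and 654 CPM in C2, C3, C4, C5, C24 and C25. The E2 libraries had 1643, 1847, 2204, 1655, 1840 and 1995 CPM in C6, C8, C9, C26, C27 and C29. All E2 mice thus exceeded the highest OVX mouse, OVX C5. The E4 libraries had 1198, 1354, 1151, 1375, 1204 and 2108 CPM in C16, C19, C20, C36, C38 and C39, and the TAM libraries had 774, 1229, 808, 892, 1411 and 911 CPM in C11, C12, C13, C32, C33 and C35. All E4 mice were above all OVX mice, whereas 3 of the 6 TAM mice were below OVX C5. The E4 mice were below every E2 mouse in 5 of 6 cases, the exception being E4 C39, and all 6 TAM mice were below every E2 mouse.

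**Figure D5:**
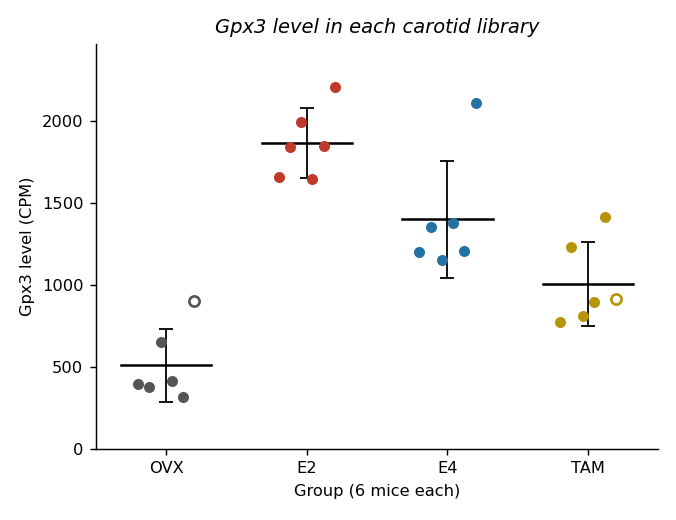
Level of Gpx3 in CPM (y axis) in each of the 24 libraries by group; points are mice, bars are the mean ± SD of 6 and open circles are OVX C5 and TAM C35. The means descend from 1864 in E2 through 1398 in E4 and 1004 in TAM to 509 in OVX mice, with OVX C5 (901) the highest of its group.

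The means of Gpx3 were 1864 ± 213 CPM in E2, 1398 ± 359 in E4, 1004 ± 256 in TAM and 509 ± 224 in OVX mice (SD, n = 6). Against OVX its log2 fold change was 1.87 ± 0.23 for E2 (3.66-fold, adjusted p = 7.73e-06), 1.46 ± 0.22 for E4 (2.74-fold, adjusted p = 0.000337) and 0.98 ± 0.22 for TAM (1.97-fold, adjusted p = 0.0256). Neighbours in that order did not pass the test of their difference in 2 cases, E2 and E4 (E4 against E2 -0.41, 95% confidence interval -0.87 to 0.04, adjusted p = 0.205) and E4 and TAM (TAM against E4 -0.48, -0.93 to -0.02, adjusted p = 0.523). TAM was lower than E2 by a log2 fold change of -0.89 ± 0.22 (adjusted p = 0.0157), a call that was lost within the first number series (-1.03, adjusted p = 0.0929) and within the second (-0.76, adjusted p = 0.296). Without OVX C5 and TAM C35 the fold changes against OVX were 2.11 for E2, 1.71 for E4 and 1.25 for TAM on the log2 scale, and all 3 passed. The call for TAM was lost without OVX C3 (adjusted p = 0.0804), TAM C12 (adjusted p = 0.0596) or TAM C33 (adjusted p = 0.0723).

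Within the first number series (4 OVX and 3 mice of each other group) the log2 fold changes of Gpx3 against OVX were 1.91 for E2, 1.28 for E4 and 0.88 for TAM, and those for E2 and E4 passed. Within the second (2 OVX and 3 of each other group) they were 1.82, 1.61 and 1.06, and none passed (adjusted p = 0.0642, 0.157 and 0.773). In the test of the difference between the series, Gpx3 had unadjusted p-values of 0.867, 0.523 and 0.732 for E2, E4 and TAM against OVX. Gpx3 also moved with white adipocyte markers within groups (r = 0.82, against 0.38 over all 24 libraries). The summed level of those 8 markers ranged from 2062 to 4416 CPM in OVX, 2802 to 4315 in E2, 2710 to 4108 in E4 and 2169 to 3219 in TAM mice. With their mean as a covariate the log2 fold changes of Gpx3 were 1.78, 1.72 and 1.38 for E2, E4 and TAM against OVX, and all 3 passed, while that for TAM against E2 was -0.40 and did not (adjusted p = 0.144). With the macrophage covariate they were 1.26 (adjusted p = 0.024), 1.68 and 1.10, and all 3 passed, and TAM against E2 was -0.16 and did not (adjusted p = 0.803). That covariate did not overlap between E2 and the other groups, so its part in the comparisons with E2 cannot be separated from treatment. Markers of other cell types differed in the same comparisons. The 4 erythroid markers were all lower in TAM-treated than in OVX mice (median log2 fold change -1.92) and than in E2-treated mice (-2.05), and summed to 1272 to 3377 CPM with TAM, against 2386 to 19125 in OVX and 2882 to 13466 with E2. In E4-treated against OVX mice 8 of 8 B cell, 4 of 5 brown adipocyte and 5 of 7 fibroblast markers were lower (medians -2.02, -0.91 and -0.58). Across the 24 libraries the r of Gpx3 with the erythroid, B cell, brown adipocyte and fibroblast marker means was 0.11, -0.40, -0.0087 and -0.08. With the macrophage and endothelial marker means it was 0.49 and 0.39, and within groups 0.47 and 0.71. With the B cell markers as a covariate the Gpx3 difference for TAM against OVX was 1.04 and did not pass (adjusted p = 0.194), and the part of the erythroid, brown adipocyte and endothelial markers was not tested.

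The Gpx3 promoter is shown as that of the gene with the largest difference, and the Sod1 promoter as that of a gene that passed in no comparison and holds the most motif matches. Both are on the plus strand, Gpx3 at chr11:54902604-54902903 and Sod1 at chr16:90220512-90220811 (GRCm38.p6, RefSeq, the same 300-base window). Capitals mark motif matches.
Gpx3: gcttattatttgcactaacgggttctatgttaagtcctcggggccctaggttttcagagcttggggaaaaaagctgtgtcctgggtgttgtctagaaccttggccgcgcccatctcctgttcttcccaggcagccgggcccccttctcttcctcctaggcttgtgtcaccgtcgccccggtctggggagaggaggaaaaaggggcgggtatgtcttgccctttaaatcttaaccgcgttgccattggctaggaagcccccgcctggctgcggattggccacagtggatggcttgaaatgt
Sod1: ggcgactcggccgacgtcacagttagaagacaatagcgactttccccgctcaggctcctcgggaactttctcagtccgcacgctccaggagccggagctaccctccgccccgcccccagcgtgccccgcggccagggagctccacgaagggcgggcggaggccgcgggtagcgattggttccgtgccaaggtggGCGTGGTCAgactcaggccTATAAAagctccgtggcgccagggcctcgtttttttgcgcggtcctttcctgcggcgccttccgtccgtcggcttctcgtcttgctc
The Gpx3 window holds none of the 5 motifs. In the Sod1 window the capitals mark a half-site, which lies within a match to the antioxidant core on the opposite strand, and a TATA box. Over the 9 genes with a promoter entry (Sod3 has none), the half-site occurred in Cat, Cyba, Sod1 and Sod2, the antioxidant core and TATA box in Sod1 alone, and the palindrome and the PU.1 core in 0 of 9.

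Groups that did not overlap at all were counted as well. For E2 against OVX these were 2 of the 10 genes, Ncf1 and Gpx3, where 2.82% of all tested genes did not overlap. For E4 against OVX it was Gpx3 (1 of 10, against 9.38%), and for TAM against OVX 0 of 10 (against 2.58%). Cybb and Ncf1 did not overlap between E4 and E2 (2 of 10, against 6.16%), and Cybb, Ncf1 and Gpx3 did not between TAM and E2 (3 of 10, against 4.23%). Between TAM and E4 the count was 0 of 10, against 0.922% of all genes.

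Levels can be compared between genes only per length. In OVX mice, as CPM per kb of merged exons, Gpx3 was highest (281 ± 124), followed by Cat (88.3 ± 18.7), Sod3 (47.2 ± 13.1), Sod2 (20.8 ± 3.77), Cyba (15.6 ± 3.77), Sod1 (15.2 ± 2.98), Nox4 (12.5 ± 2.11), Cybb (3.83 ± 0.48), Ncf1 (2.67 ± 0.57) and Nox1 (0.76 ± 0.34). The antioxidant genes thus lay mostly above the oxidase genes. Cyba, Sod1 and Nox4 were close to each other, and their order depended on the length used. With the principal transcript (641 bases, against 3970 of merged exons) Sod1 was at 93.9 CPM per kb and moved from position 6 to 2. By the same measure Sod2 was at 35.5 and Nox4 at 28.3 CPM per kb, and Cyba, at 21.8, moved from position 5 to 7, below Nox4. Gpx3 stayed first and Cybb, Ncf1 and Nox1 stayed last.

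In the wider list, which was chosen with earlier results of these data known, 5 of 64 genes were higher and 1 was lower in E2-treated than in OVX mice, with a median log2 fold change of 0.02, where 2.87% of all genes were higher and 1.27% lower. Those with the largest changes were Gclc, the catalytic subunit of the enzyme that limits glutathione synthesis (42.4 CPM in OVX and 83.5 in E2, log2 fold change 0.98 ± 0.12, adjusted p = 7.73e-06), and G6pdx, which supplies NADPH through the pentose phosphate pathway (49.9 and 96.1 CPM, 0.94 ± 0.12, adjusted p = 1.88e-05). Neither overlapped between the groups. Gss, the glutathione synthetase gene, was the one that was lower (-0.52 ± 0.14, adjusted p = 0.0381). OVX mice ranged from 27.1 to 65.3 CPM for Gss, against 22.8 to 34.6 with E2.

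In E4-treated mice 6 of 64 were higher and 10 lower than in OVX (median -0.03), near the 9.5% and 12.5% of all genes. Mt2, a metallothionein gene, was the one past a log2 fold change of 1 (9.29 CPM in OVX and 19.2 in E4, 1.05 ± 0.21, adjusted p = 0.0019), and Gclc was next (0.70 ± 0.12, adjusted p = 0.000643). The lowest were Gss (-0.73 ± 0.14, adjusted p = 0.00198) and Rac2 (-0.71 ± 0.23, adjusted p = 0.03). In TAM-treated mice 0 of 64 were higher and 1 was lower, against 1.3% and 0.93% of all genes, and the lower one was again Gss (-0.66 ± 0.14, adjusted p = 0.0237). The G6pdx difference was 0.48 ± 0.12 for E4 (adjusted p = 0.00866) and 0.14 ± 0.12 for TAM (adjusted p = 0.548).

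Between E4 and E2, 2 of 64 were higher and 7 lower with E4 (median -0.09), against 3.55% and 9.05% of all genes. The higher ones were Mt2 (0.73 ± 0.21, adjusted p = 0.0236) and Prdx6, a peroxiredoxin gene (0.21 ± 0.07, adjusted p = 0.0417), and the lowest were the oxidase genes Ncf4 and Rac2 given above. Between TAM and E2, 1 of 64 was higher with TAM (Prdx6, 0.23 ± 0.07, adjusted p = 0.0478) and 7 were lower (median -0.07), against 1.92% and 4.48% of all genes, again with Ncf4 and Rac2 the lowest. Gclc (-0.71 ± 0.12, adjusted p = 0.000415) and G6pdx (-0.81 ± 0.12, adjusted p = 0.000165) were also lower with TAM than with E2. Between TAM and E4, 0 of 64 passed in edgeR (median -0.03), against 0.172% of all genes in each direction.

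The genes whose log2 CPM followed each of the 10 most closely were searched among 14573 protein-coding genes over the 24 libraries, which share their groups and differ in cell makeup. For Cybb these were Clec4a1 (r = 0.96), Clec4a3 (0.95) and Pld4 (0.94), for Ncf1 Cfp (0.98), Fcrls (0.98) and Fcgr2b (0.97), and for Cyba Tubb6 (0.94), Rnase4 (0.94) and Ctsh (0.93). For Gpx3 they were Mettl7a1 (0.96), the complement gene C3 (0.95) and Adra1a (0.95), and on deviations from the group means these values were 0.86, 0.85 and 0.89. Nox1 was followed by Ppp3cb (0.95), Cbfb (0.95) and Strap (0.95), and Nox4 by Cped1 (0.91), Pdlim7 (0.90) and Csrp2 (0.90). Sod1 was followed by Atp5o (0.88), Rpl18 (0.86) and Rpl19 (0.85), Sod2 by Hspa9 (0.91), Uqcrfs1 (0.90) and Immt (0.90), and Sod3 by Galnt2 (0.96), Gm20388 (0.96) and Pofut2 (0.95). Cat was followed by Tmem143 (0.92), Pxmp4 (0.90) and Pnpla2 (0.89), of which Pnpla2 is in the white adipocyte marker list.

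Among the 10 genes themselves the highest correlations were between Cybb and Ncf1 (r = 0.90), Cyba and Ncf1 (0.80) and Cybb and Cyba (0.77), and the lowest between Nox1 and Nox4 (-0.69) and Nox1 and Cyba (-0.67). On deviations from the group means these 5 were 0.69, 0.74, 0.62, -0.66 and -0.80. Gpx3 was closest to Cat (0.59, and 0.77 within groups). All are descriptions over 24 libraries.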

How the data were processed

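From total RNA of mouse carotid arteries, stranded mRNA libraries were made and sequenced as paired 150-base reads. Per the submitters' processing notes, bcl2fastq 2.17, Trim Galore, Bowtie2 and featureCounts were used with mm10/GRCm38. The deposited tables, 1 for each library, hold estimated counts of genes as the authors' counting gave them, not normalized. Decimals occurred in 8.87% to 9.80% of the values of a library and were rounded. Genes were named by GENCODE mouse release 21 (55240 of 55421 identifiers matched), whose exons gave lengths and overlaps. The strand setting of the counting was not given in the sources used here.

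Counts of all 24 libraries entered 1 fit with a coefficient per group (edgeR 4.0.16 quasi-likelihood test in R 4.3.3, TMM scaling, filterByExpr, Benjamini-Hochberg adjustment over 25056 genes), so that the 4 groups share a scale. Standard errors come from the F statistic. The procedure was tested on simulated data. Marker sums were compared by exact permutation tests (scipy 1.17.1), and promoters come from RefSeq on GRCm38.p6. Alternatives covered DESeq2 1.42.0, scaling, filters, libraries in the fit, number series, marker covariates and each library left out. The fibroblast covariate and the principal-transcript length were added after the data were seen. The 10 genes, the wider list and the markers were chosen with earlier results of these data known. Named from the wider list were, per comparison, the 2 highest and 2 lowest fold changes that passed and all beyond a log2 fold change of 1; G6pdx, Gclc, Ncf4 and Rac2 are also given in comparisons where this rule did not name them. Nearest genes were the 3 with the highest r among protein-coding genes with a mean of at least 1 CPM. Each library comes from its own animal by number. The lowest count of any of the 10 genes in a library was 56, and the number of animals per group limits the precision.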

Additional observations from a re-analysis of the deposited data

Results flagged for a closer look

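In 6 of the 40 groups of 6 libraries (10 genes in 4 groups), the highest or lowest library stood apart from its neighbour by more than 0.625 of the group's range, where chance gives about 2. For 3 of them this library was TAM C35, which was low in sympathetic ganglion markers and had the highest smooth muscle, endothelial, fibroblast and skeletal muscle marker sums of all libraries. Its Nox1 level was 1.39 CPM, against 2.89 to 3.64 in the other TAM mice (a gap of 0.668 of the range). Its Nox4 level was 166 CPM, against 62.6 to 95.9 (gap 0.677), and its Cyba level was 24.5 CPM, against 13.03 to 15.1 (gap 0.823). OVX C2 had 71.9 CPM of Nox4, against 105 to 118 in the other OVX mice (gap 0.715). E4 C16 had 98.8 CPM of Sod1, against 47.4 to 51.5 in the other E4 mice (gap 0.92). E4 C39 had 2108 CPM of Gpx3, against 1151 to 1375 in the other E4 mice (gap 0.766).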

How the results depend on the processing

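Of 2370 recomputed fold changes of the 10 genes, 2314 kept their direction and their side of the threshold or stayed uncalled, 28 lost their call, 24 gained one and 4 that were called changed sign. The 4 arose with the macrophage marker covariate, whose values did not overlap between E2 and the other groups. Cybb was -0.15 for E2 against OVX, 0.19 for E4 against E2 and 0.15 for TAM against E2, and Cyba was 0.43 for E4 against E2, none passing. The cause was not tested beyond the values given above. The number of the 10 genes that passed, against the main 3, 1, 1, 3 and 3 for E2, E4 and TAM against OVX, E4 against E2 and TAM against E2, was 0 in all 5 with the second number series alone, which has fewer libraries. With the macrophage covariate it was 1 (Gpx3), 2 (Cat and Gpx3), 2 (Sod3 and Gpx3), 0 and 1 (Sod3). For E4 against OVX it was 3 with the ganglion or the fibroblast covariate (Sod3, Cat and Gpx3), 2 with the adipocyte covariate and 2 without OVX C5 and TAM C35 (both Cat and Gpx3). For TAM against OVX it was 0 with those 2 groups alone, the first series alone or the B cell covariate, and 2 with the ganglion or fibroblast covariate (Sod3 and Gpx3) or the adipocyte covariate (Cat and Gpx3). Other causes were not tested. Leaving out 1 library gave 3 for E2 against OVX, 1 to 2 for E4 against OVX, 0 to 1 for TAM against OVX, 2 to 3 for E4 against E2, 3 to 4 for TAM against E2 and 0 for TAM against E4. Cyba for E4 against E2 lost its call without E2 C8. DESeq2 called the same genes as the main test. Calls over all genes varied as well, and their number in each setting is not set beside the counts above. Fits without 1 library aside, they ranged from 92 to 2204 for E2, 5 to 6250 for E4 and 0 to 1691 for TAM against OVX. For E4 and TAM against E2 they ranged from 0 to 6465 and from 115 to 3332. No paired analysis was possible because the groups share no animal numbers. The 6 animals per group bound what could be seen: 95% intervals of the 6 genes that passed nowhere reached up to 1.07 on the log2 scale.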
